A study of Mus musculus with 2 samples.

Results

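Butyrophilin-like (Btnl) proteins and E-cadherin on gut epithelial cells were read here beside the receptors that lymphocytes of the gut lining use to touch them. The set has 8 genes of the 27998 in the matrices, chosen by name for their part in contacts between epithelium and lymphocytes. Btnl1, Btnl2, Btnl4, Btnl6, Cdh1 and Tnfrsf14 are the 6 epithelial partners, and Itgae and Cd160 are the 2 lymphocyte partners. The data are counts of UMIs (unique molecular identifiers, short tags that mark single RNA molecules) in single cells from jejunal crypts of 375KO mice, which carry a whole-body deletion of miR-375 made with CRISPR/Cas9. There were 2 male mice on a B6 albino background (strain label C57BL6/2J), each 12 months old, with 1 library each, and they form a single group, so nothing below measures an effect of the deletion. The cells were released with dispase I and read with a droplet kit that captures the 3′ end of each RNA, and wild-type mice were not analysed here.

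Intraepithelial lymphocytes (IEL) sit between the epithelial cells of the intestine, and many of them carry a γδ T cell receptor. Btnl1 pairs with Btnl6 and with Btnl4 on the surface of enterocytes, and these pairs are known to select and maintain γδ IEL of the mouse gut. E-cadherin, the product of Cdh1, joins epithelial cells to each other and is also the ligand of the integrin αEβ7, whose αE chain (CD103) is encoded by Itgae and whose β7 chain is encoded by Itgb7. Tnfrsf14 encodes HVEM, a receptor that binds CD160 and BTLA on lymphocytes and the ligand LIGHT, encoded by Tnfsf14. Btnl2 encodes another family member, known as an inhibitor of T cell activation.

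The Btnl genes lie together on chromosome 17. On GRCm38 (mm10), GENCODE M21 places Btnl2 at 34354822 to 34369495 and Btnl1 at 34377132 to 34386028, both on the plus strand, and Btnl4 at 34466562 to 34477318 and Btnl6 at 34507804 to 34517352, both on the minus strand. The 4 genes span 162.5 kb. Cdh1 lies on chromosome 8 from 106603351 to 106670246, Itgae on chromosome 11 from 73090583 to 73147446, Cd160 on chromosome 3 from 96798763 to 96829351 and Tnfrsf14 on chromosome 4 from 154921933 to 154928563. RefSeq promoter windows (250 bases before to 50 after the start, build GRCm38.p6) were found for the 4 Btnl genes, Cd160 and Tnfrsf14, and those of the Btnl genes are printed because their RNAs were highest in the same annotated class. Each line reads 5′ to 3′ on the gene's own strand, and capitals mark matches to the searched letters given after the sequences.

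Btnl1, chr17:34376882-34377181, plus strand: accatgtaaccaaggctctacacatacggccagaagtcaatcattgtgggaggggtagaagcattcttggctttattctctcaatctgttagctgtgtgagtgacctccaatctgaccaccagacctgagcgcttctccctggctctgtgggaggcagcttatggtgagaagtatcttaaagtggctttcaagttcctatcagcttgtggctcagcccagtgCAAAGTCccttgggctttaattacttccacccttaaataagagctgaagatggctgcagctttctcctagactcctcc
Btnl2, chr17:34354572-34354871, plus strand: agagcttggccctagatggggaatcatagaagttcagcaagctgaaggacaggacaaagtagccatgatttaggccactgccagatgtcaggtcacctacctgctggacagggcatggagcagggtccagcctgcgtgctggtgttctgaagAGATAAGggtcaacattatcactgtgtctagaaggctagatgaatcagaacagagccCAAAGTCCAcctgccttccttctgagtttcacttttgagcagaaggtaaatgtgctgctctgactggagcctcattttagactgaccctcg
Btnl4, chr17:34475888-34476187, minus strand: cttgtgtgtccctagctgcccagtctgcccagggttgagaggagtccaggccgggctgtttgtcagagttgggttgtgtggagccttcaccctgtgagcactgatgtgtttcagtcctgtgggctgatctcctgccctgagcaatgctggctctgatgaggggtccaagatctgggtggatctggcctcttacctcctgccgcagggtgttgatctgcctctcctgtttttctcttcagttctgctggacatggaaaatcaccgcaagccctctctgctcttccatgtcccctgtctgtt
Btnl6, chr17:34517303-34517602, minus strand: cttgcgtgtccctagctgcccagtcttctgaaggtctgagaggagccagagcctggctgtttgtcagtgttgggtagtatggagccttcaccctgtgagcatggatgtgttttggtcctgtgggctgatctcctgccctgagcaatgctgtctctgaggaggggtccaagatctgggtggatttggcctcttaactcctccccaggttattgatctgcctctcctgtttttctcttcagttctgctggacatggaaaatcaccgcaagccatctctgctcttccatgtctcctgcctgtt

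Both strands were searched for 7 motifs. For HNF4 factors, which control many enterocyte genes, the letters were CAAAGTCCA, and their first part CAAAGTC was counted separately. For the CDX factors of the intestine they were TTTATNG. For GATA factors they were AGATAAG. For the core promoter element known as the TATA box they were TATAAA. The HNF1 motif and the interferon-stimulated response element were searched as well. The full HNF4 letters CAAAGTCCA stood in the Btnl2 window, starting 41 bases before the RefSeq start, and are found in 0.475% of 32851 RefSeq windows of this length. The shorter CAAAGTC, which overlaps that match in Btnl2, also stood in the Btnl1 window, starting 28 bases before the start, and is found in 4.44% of windows. The GATA letters stood in the Btnl2 window, 98 bases before the start, against 3.04% of windows. None of the searched letters stood in the Btnl4 and Btnl6 windows. The shares of windows with the others were 10.9% for TTTATNG, 13.6% for TATAAA, 3.44% for the interferon element and 0.00913% for the HNF1 motif. Without gaps, the Btnl4 and Btnl6 windows were the same at 60.5% of 299 bases, while the other pairs were the same at 30.1% to 32.9%. The RefSeq start of Btnl4 lies inside the longer span that GENCODE gives the gene.

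The authors kept 2082 cells of mouse 1 (44017234 UMIs) and 1193 cells of mouse 2 (22163354 UMIs) and gave each 1 of 10 names. The libraries share 0 barcodes. Of 30 markers of 7 cell classes, 29 were highest in their own annotated class in both mice. The exception was Ascl2, a stem cell marker that was highest in tuft cells. The authors named the clusters by known markers of these cell types, so this count is a description and no independent check of the names. The annotated IEL were 50 and 18 cells and fall into a cluster of T cells and a second cluster described below.

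Btnl1 and Btnl2 RNA was concentrated in enterocytes in both mice. Enterocytes (931 and 382 cells) held 745 Btnl1 UMIs in mouse 1 and 117 in mouse 2, which is 38.5 and 21.9 UMIs in 1000000 UMIs of these cells (CPM), or 30.2 ± 11.7 CPM (SD, n = 2 mice). Btnl2 stood at 50.9 and 21.7 CPM in enterocytes, from 985 and 116 UMIs. For each gene both enterocyte values lay above the values of both mice in every other annotated type.

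Transit-amplifying (TA) cells, the dividing daughters of stem cells, came next. They held Btnl1 at 13.9 and 3.50 CPM and Btnl2 at 13.5 and 5.07 CPM. Stem cells held Btnl1 at 11.8 and 3.12 CPM and Btnl2 at 4.48 and 0.623 CPM, and goblet progenitors Btnl1 at 7.63 and 3.0 CPM and Btnl2 at 9.87 and 1.80 CPM. The ranges over the mice overlapped between TA cells and goblet progenitors for both genes, and between TA and stem cells for Btnl1. In mature goblet cells Btnl1 was at 3.70 and 1.34 CPM and Btnl2 at 1.32 and 0.894 CPM. Paneth cells, the deepest cells here, held 2 Btnl1 UMIs and 2 Btnl2 UMIs over both mice. In tuft cells no Btnl1 UMI was seen, which allows up to 7.25 CPM in mouse 1 and 5.36 CPM in mouse 2, so a level like that of goblet cells was not detectable there.

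Btnl4, the other partner of Btnl1, had a flatter distribution. Enterocytes held 12.2 and 5.42 CPM (237 and 29 UMIs), TA cells 6.52 and 4.72 CPM, goblet progenitors 8.19 and 3.0 CPM, stem cells 6.17 and 2.49 CPM and goblet cells 5.82 and 1.34 CPM. The ranges over the mice overlapped between enterocytes and TA cells. Paneth cells held no Btnl4 UMI in either mouse, which allows up to 0.854 and 0.688 CPM on plain library totals. On the TMM scale of the fits, which allows for a few genes that take most UMIs, the 2 Btnl2 UMIs of Paneth cells in mouse 1 stood for 3.76 CPM and the 2 Btnl1 UMIs in mouse 2 for 3.90 CPM. On that scale a Btnl4 level like that of enterocytes in mouse 2 (5.22 CPM) could not be told from 0 UMIs in Paneth cells.

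Btnl6, the partner of Btnl1 in the best studied pair, was sparse: enterocytes held 101 and 24 UMIs, or 5.21 and 4.49 CPM. The remaining epithelial cells together held 31 and 7 UMIs, or 1.27 and 0.422 CPM. The enterocyte values lay above those of TA, stem, goblet and goblet progenitor cells in both mice, while 1 UMI in the few enteroendocrine cells of mouse 2 gave 4.64 CPM with a 95% exact Poisson interval of 0.118 to 25.9. In the last 300 bases of its annotated transcripts, the part that 3′ libraries read, 18.1% of 40-base stretches of Btnl6 also occur in Btnl4 or the pseudogene Btnl7-ps. The share found in any other gene was 6.51% for Btnl4, 8.19% for Tnfrsf14 and 0.0% for the other 5 genes. For Btnl4 these were 34 of 522 stretches, of which 20 occur in Btnl6 or the pseudogenes Btnl5-ps and Btnl7-ps. The split of reads between Btnl4 and Btnl6 is thus less certain than the other values. The stretches of Tnfrsf14 were not shared with butyrophilin genes.

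**Figure D1:**
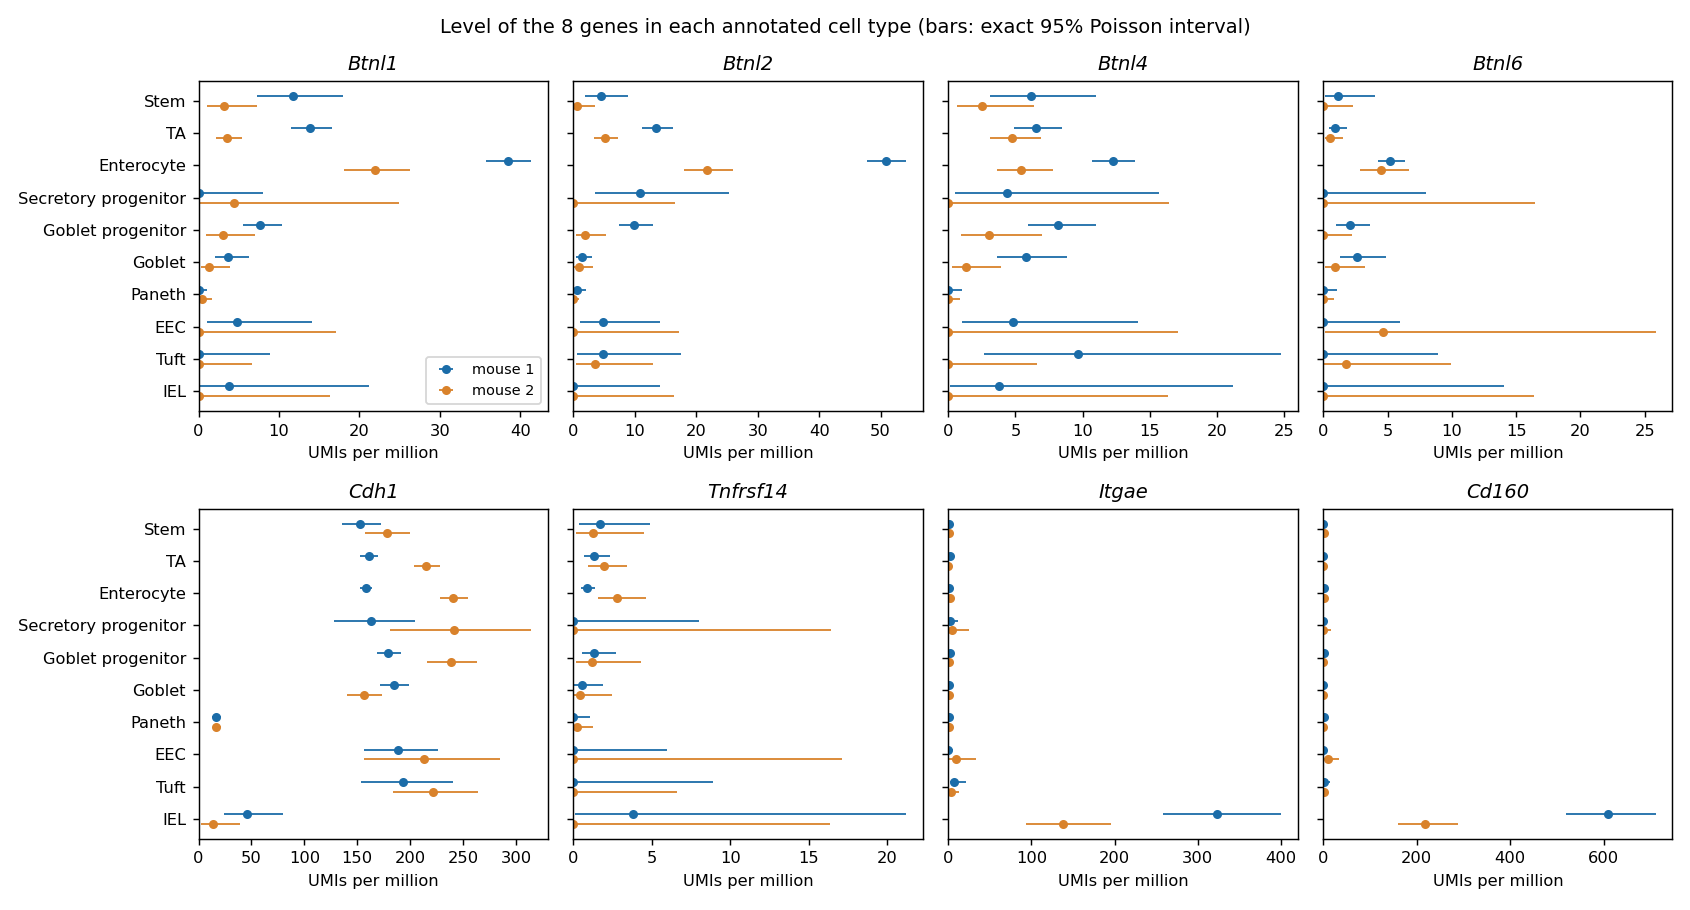
Level of each gene (x axis, CPM, linear from 0) in the 10 annotated cell types (y axis). Points are the 2 mice and bars are exact 95% Poisson intervals, which cover counting error only. Btnl1 and Btnl2 stand highest in enterocytes in both mice, Cdh1 is spread over the epithelial types with low values in Paneth cells on this scale of plain totals, and Itgae and Cd160 stand highest in IEL.

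The ratio of enterocytes to all other epithelial cells pooled was 4.79 in mouse 1 and 10.1 in mouse 2 for Btnl1. It was 6.46 and 9.73 for Btnl2, 4.10 and 10.6 for Btnl6 and 2.12 and 2.31 for Btnl4. Levels in mouse 1 were above those in mouse 2 for Btnl1, Btnl2 and Btnl4, yet enterocytes were higher than the rest in each mouse.

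The levels were compared with the quasi-likelihood test of edgeR on UMI sums per mouse and type, with Benjamini-Hochberg adjustment over all genes tested. Since the authors drew the types from the same cells' expression, a call says how far the annotated classes stand apart. Against the mean of the other 8 epithelial types, 31.3% of 11013 genes were higher in enterocytes. Of the 8 genes 5 passed the filter on low counts (Btnl1, Btnl2, Btnl4, Cdh1 and Itgae), and 4 of these were higher in enterocytes. Btnl1 was higher by 4.22 on the log2 scale (SE 0.30, adjusted p = 2.65e-13), Btnl2 by 3.70 (SE 0.21, adjusted p = 5.12e-16) and Btnl4 by 2.32 (SE 0.39, adjusted p = 9.06e-06). These means weigh each type equally and include types with 0 UMIs, so the fitted sizes depend on how the model treats zeros. With the Paneth sums left out, which hold no Btnl4, the Btnl4 value was 1.45.

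Enterocytes and TA cells, both well filled, give the firmer comparison. Here 29.1% of the 11013 genes were higher in enterocytes. Btnl2 was higher by 2.41 (SE 0.23, adjusted p = 2.79e-10) and Btnl1 by 2.29 (SE 0.26, adjusted p = 1.79e-08), with values of 2.28 and 2.14 in the single mice for Btnl2 and 1.84 and 2.58 for Btnl1. Btnl4 was higher by 1.06 (SE 0.32, adjusted p = 0.00636), but by only 0.39 in mouse 2, and its call was lost with DESeq2 (adjusted p = 0.123), without the mouse term (adjusted p = 0.259) and without TMM scaling (adjusted p = 0.104). Btnl6 was below the filter on low counts, and without that filter it was higher by 2.93 (SE 0.56, adjusted p = 1.02e-06). Over all 9 epithelial types, 77.3% of genes differed, among them Btnl1, Btnl2, Btnl4 and Cdh1.

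The choice of scaling matters for this comparison. TMM scaling put the median gene at 0.0592 on the log2 scale between enterocytes and TA cells, and plain library totals put it at -0.351. The split of called genes was 3208 higher and 2486 lower with TMM, and 1797 higher and 4134 lower without. On plain totals Btnl1 and Btnl2 were still higher in enterocytes, by 1.87 and 1.99.

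Enterocytes themselves were not uniform. The authors' 5 numbered enterocyte clusters (1, 2, 3, 6 and 9) held Btnl2 at 82.4, 20.6, 53.5, 34.1 and 47.6 CPM in mouse 1. In mouse 2 they held it at 53.3, 3.28, 27.4, 17.3 and 22.6 CPM. Cluster 1 was highest and cluster 2 lowest in each mouse, and mouse 1 was above mouse 2 in all 5 clusters.

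Btnl1 followed a similar but shallower order, from 24.9 CPM in cluster 2 to 48.4 CPM in cluster 9 and 45.5 CPM in cluster 1 for mouse 1. In mouse 2 it ran from 9.83 CPM in cluster 2 to 46.5 CPM in cluster 1. Cluster 1 thus held Btnl1 at a like level in the mice (intervals of 39.7 to 51.8 and 33.3 to 63.0 CPM), while clusters 2, 6 and 9 were higher in mouse 1 with intervals that did not overlap. Btnl4 showed no such order: it was 11.01 CPM in cluster 1, 14.9 CPM in cluster 2 and 16.3 CPM in cluster 9 of mouse 1, and 3.38 to 6.55 CPM over the clusters of mouse 2. The median mitochondrial share of UMIs was also highest in cluster 1 (15.1% and 9.65%) and lowest in cluster 2 (10.2% and 5.89%), and its part in the order was not tested. These clusters were drawn by the authors from the same cells, so differences between them were not tested.

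**Figure D2:**
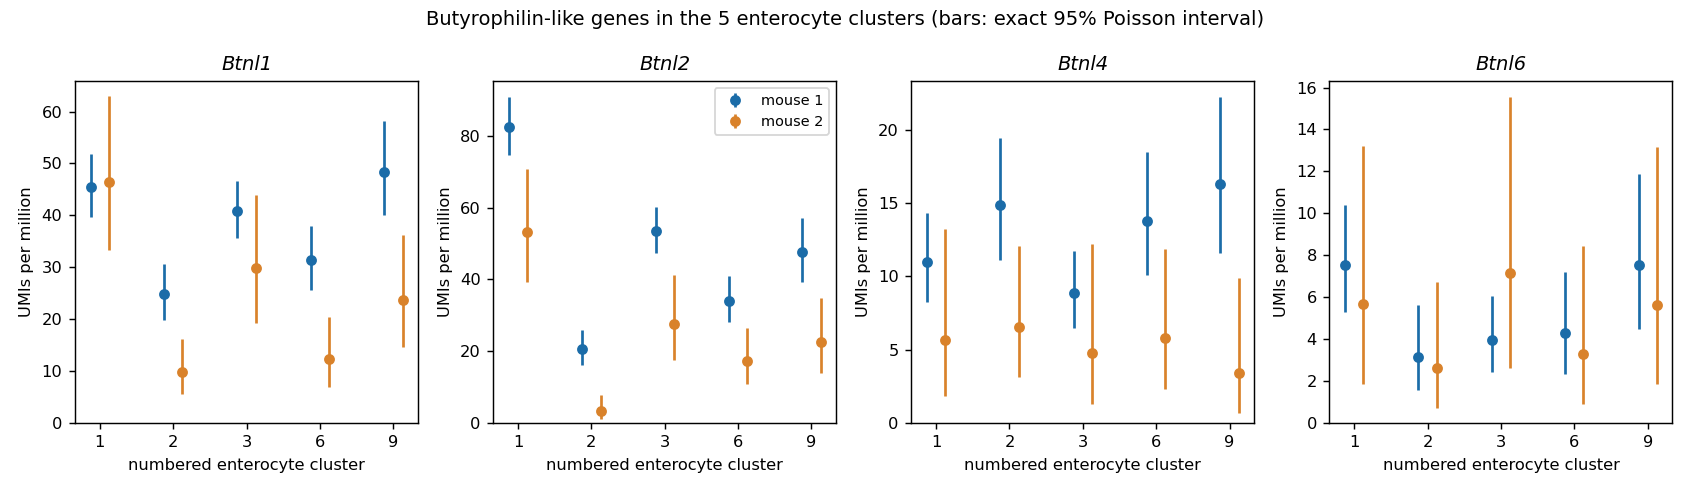
Btnl1, Btnl2, Btnl4 and Btnl6 (y axes, CPM, from 0) in the 5 numbered enterocyte clusters (x axis). Points are the 2 mice and bars exact 95% Poisson intervals, for counting error only. Btnl2 is highest in cluster 1 and lowest in cluster 2 in both mice (82.4 against 20.6 CPM in mouse 1), while Btnl4 has no such order.

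H2-T3 encodes the thymus leukaemia antigen, a ligand of CD8αα on IEL. Like Btnl2 it was highest in cluster 1 (588 and 130 CPM) and lowest in cluster 2 (177 and 57.0 CPM) in each mouse. In enterocytes as a whole it was at 372 and 88.3 CPM, and in TA cells at 109 and 33.6 CPM.

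A Btnl1 UMI was seen in 51.2% of enterocytes of mouse 1 (477 of 931, exact 95% binomial interval 48.0 to 54.5%) and in 25.9% of mouse 2 (99 of 382, 21.6 to 30.6%). The median enterocyte held 16975 UMIs in mouse 1 and 13405 in mouse 2, so cells were thinned to 5000 UMIs each. The shares were then 16.0% and 10.7% for Btnl1 and 20.9% and 12.0% for Btnl2, against 5.31% and 2.48% of TA cells for Btnl1 and 0 of 78 and 0 of 54 Paneth cells. These 0 counts in Paneth cells allow up to 3.85% and 5.56%. Thinned Cdh1 was also seen in fewer Paneth cells (7.69% and 16.7%) than enterocytes (52.7% and 64.9%). The unthinned shares for Btnl2 were 55.9% and 23.8%. Btnl4 and Btnl6 UMIs were seen in 21.7% and 9.99% of enterocytes of mouse 1 and in 7.33% and 5.76% of mouse 2, and after thinning in 5.81% and 2.90%, and in 2.62% and 2.36%.

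Single enterocytes were also read for both members of a pair. In mouse 1, 46 of the 93 enterocytes with a Btnl6 UMI also had a Btnl1 UMI (49.5%), and 51.4% of those without Btnl6 did. In mouse 2 the shares were 27.3% (6 of 22) and 25.8%. The direction of this small difference was not the same in the mice. For Btnl4 the corresponding shares of cells with Btnl1 were 54.5% and 50.3% in mouse 1, and 35.7% and 25.1% in mouse 2. For Btnl2 they were 57.3% and 43.6%, and 37.4% and 22.3%. Cells with a Btnl2 UMI were deeper, with a median of 18732.5 UMIs against 16017 in mouse 1 and 13570 against 13322 in mouse 2. So were cells with a Btnl4 UMI, at 19254 against 16696 in mouse 1 and 14140 against 13293.5 in mouse 2. The part of depth in these shares was not tested.

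Over the 18 epithelial sums the genes most like Btnl2 by Pearson's r of log2(CPM + 1) were Chp2 (r = 0.947), Slc51b (r = 0.941) and Fabp1 (r = 0.939), which encodes an enterocyte fatty acid binding protein. For Btnl1 they were Mocos (r = 0.908), Bco2 (r = 0.881) and Ces2a (r = 0.865), and for Btnl4 they were Rhbdl2 (r = 0.935), H2-T3 (r = 0.906) and Taco1 (r = 0.903). Among the Btnl genes r was 0.625 between Btnl1 and Btnl2, 0.612 between Btnl1 and Btnl4 and 0.775 between Btnl2 and Btnl4. These pairs were fixed by name, while the genes above were picked as the most alike, so the r values are not compared. Several sums also held few or no Btnl UMIs. The sums share 2 libraries and range widely in depth, so these values are a description.

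Cdh1 was spread over the epithelium. In enterocytes it stood at 158 and 241 CPM (199.5 ± 58.4, SD, n = 2 mice), in TA cells at 161 and 215 CPM, in stem cells at 153 and 178 CPM and in goblet cells at 185 and 156 CPM. Enteroendocrine, tuft and progenitor cells lay between 163 and 241 CPM. Apart from Paneth cells, on this scale no epithelial type differed from its neighbour in the order beyond the range of the mice. A Cdh1 UMI was seen in 88.6% and 91.9% of enterocytes.

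On plain library totals Paneth cells were the exception, with Cdh1 at 16.5 and 17.0 CPM from 58 and 74 UMIs. In these cells 10 genes, led by the defensin Defa24, took 82.6% and 81.9% of all UMIs, against 8.62% to 25.7% in the other epithelial sums. Epcam, a general epithelial surface gene, was also low there, at 126 and 71.5 CPM, and the ratio of Epcam to Cdh1 UMIs in Paneth cells (7.64 and 4.22) lay within the range of the other epithelial types in each mouse. On the TMM scale this gap was not seen, since the Cdh1 level of 109 and 144 CPM in Paneth cells overlapped over the mice with stem cells (120 and 152 CPM) and with TA cells (116 and 168 CPM). Enterocytes were at 162 and 232 CPM on that scale.

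In the edgeR fit Cdh1 was higher in enterocytes than in the mean of the other types by 0.41 (SE 0.12, adjusted p = 0.0048). Without the mouse term or with thinned cells this call was lost (adjusted p = 0.169 and 0.141). Against TA cells it was higher by 0.47 (SE 0.16, adjusted p = 0.0153). The latter call was lost under 5 alternatives: on plain library totals (0.07, adjusted p = 0.758), without the low-count filter (0.36, adjusted p = 0.141), without the mouse term (0.47, adjusted p = 0.299), with thinned cells (0.29, adjusted p = 0.191) and with the stricter cell filter (0.35, adjusted p = 0.0924). With DESeq2 it stayed (0.43, adjusted p = 0.0434). The ratio of CPM was 0.983 in mouse 1 and 1.12 in mouse 2. The genes most like Cdh1 over the 18 sums were Scand1 (r = 0.989), Tceb2 (r = 0.986) and Pfdn1 (r = 0.983). Likeness was read on plain library totals, on which Cdh1 was low in Paneth cells, and the part of those sums in r was not tested.

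Tnfrsf14 was near the limit of detection: 40 and 32 UMIs were seen in all epithelial cells together, and 17 and 15 of them in enterocytes (0.878 and 2.80 CPM). A UMI was present in 1.83% and 3.40% of enterocytes. Itgae, a lymphocyte gene, was present in 1.72% and 1.57% of the same cells. Mouse 1 shows Tnfrsf14 no higher in enterocytes than in the other epithelial cells (0.943 CPM), and in mouse 2 the latter were at 1.02 CPM. Its level in enterocytes could not be told from background at this depth. With the low-count filter removed, the edgeR fit gave 2.48 against the mean of the other types, of which several are at 0 (SE 1.03, adjusted p = 0.0472), and 0.26 against TA cells (SE 0.67, adjusted p = 0.859).

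Itgae and Cd160 were highest in annotated IEL. The authors used Itgae among the markers that named this class, so its level there is a description. IEL held Itgae at 324 and 138 CPM (85 and 31 UMIs) and Cd160 at 609 and 217 CPM (160 and 49 UMIs). All epithelial cells together held Itgae at 1.33 and 1.003 CPM and Cd160 at 0.731 and 0.501 CPM. Each IEL value lay above every epithelial value. Among epithelial types, Cd160 in enterocytes (25 and 5 UMIs) was at 1.29 and 0.935 CPM, and the remaining epithelial cells were at 0.287 and 0.362 CPM. The 6 IEL markers (Cd3e, Cd3g, Cd8a, Gzma, Gzmb and Ccl5) were all detected in enterocytes too, summing to 33.4 and 140 CPM against 16820 and 9529 CPM in IEL. Single epithelial cells with at least 3 of these markers numbered 13 in each mouse, and in mouse 1 they held 23 of the 58 Itgae UMIs of the epithelium. The 2 Cd160 UMIs of enteroendocrine cells in mouse 2 (9.28 CPM) stood beside a summed 1221 CPM of the markers. The part of these markers in epithelial Itgae and Cd160 was not tested.

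In the fit of IEL against the mean of the 9 epithelial types, 16.4% of 11402 genes were higher and 13.6% lower in IEL. On plain library totals the split of 1867 higher and 1551 lower became 3012 and 881, and the median gene moved from -0.0557 to 0.42. Cd160 passed the low-count filter only once the IEL sums were included, so its level there is a description with no test. Cdh1 was lower: it fell by 2.71 (SE 0.32, adjusted p = 1.83e-08) and stood at 45.7 and 13.3 CPM in IEL, from 12 and 3 UMIs. Epithelial markers in the IEL sums (Epcam 293 and 39.9 CPM) were also higher in mouse 1, and their part in the Cdh1 UMIs of IEL was not tested. Btnl genes gave 2 UMIs in the IEL of mouse 1 and 0 in those of mouse 2, and 0 UMIs allow up to 11.4 CPM in mouse 1 and 13.3 CPM in mouse 2. These limits lie under the enterocyte levels of Btnl1 and Btnl2 and above that of Btnl6.

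The 2 IEL clusters differed. Cluster 11 (28 and 5 cells) was led by Ccl5, Gzma, Cd3g, Xcl1 and Cd7 in mouse 1, genes of cytotoxic T cells, and it held Cd160 at 985 and 587 CPM and Itgae at 437 and 252 CPM. Cluster 14 (22 and 13 cells) was led by Tyrobp, Ly6d, Lyz2 and Mcpt1 in mouse 1 and by Jchain, Cd52, Tyrobp and Ly6d in mouse 2, genes known from myeloid, mast and plasma cells among others, so its leading genes go against the IEL name and it is called by its number. It held no Cd3e UMI in mouse 1 and 14 in mouse 2. Its Cd160 was 0 and 7 UMIs, and 0 allows up to 29.9 CPM in mouse 1, but its Itgae was 14 and 13 UMIs, or 140 and 84.5 CPM, above the level of every epithelial type. All 9 Btla UMIs of annotated IEL were in cluster 14.

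In IEL an Itgae UMI was seen in 58.0% of the cells of mouse 1 (29 of 50, interval 43.2 to 71.8%) and 44.4% of mouse 2 (8 of 18, 21.5 to 69.2%). A Cd160 UMI was seen in 48.0% (24 of 50) and 44.4% (8 of 18). Both were seen together in 19 and 7 cells. Of the cells with Cd160, 79.2% and 87.5% also had Itgae, against 38.5% and 10.0% of those without. The 22 cluster 14 cells of mouse 1 held no Cd160 UMI and are all among those without. This contrast therefore mixes the clusters, and co-detection was not read within each cluster. Itgb7, which completes the integrin with the product of Itgae, was at 149 and 164 CPM, and 17 and 8 cells held UMIs of both chains. The genes most like Cd160 over all 20 sums were Cd48 (r = 0.982), Runx2 (r = 0.98) and Arhgef6 (r = 0.979), and those most like Itgae were Hmha1 (r = 0.962), Cd48 (r = 0.956) and Arhgef6 (r = 0.955).

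**Figure D3:**
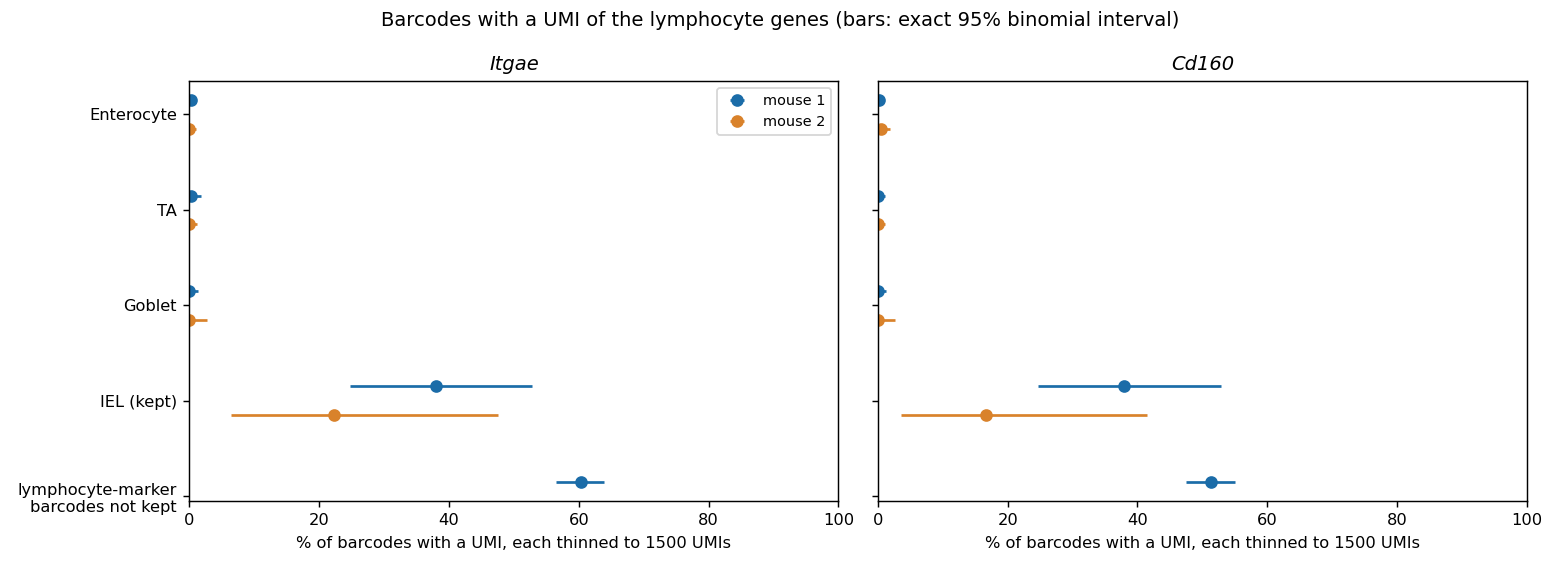
Percent of barcodes with a UMI of Itgae (left) or Cd160 (right), after thinning each barcode to 1500 UMIs, in enterocytes, TA cells, goblet cells, annotated IEL and lymphocyte-marker barcodes that the authors did not keep (mouse 1 only). Points are the mice and bars exact 95% binomial intervals. The unkept barcodes stand at 60.3% for Itgae and 51.3% for Cd160, and the annotated IEL of mouse 1 at 38.0% for both genes, with intervals that overlap for Cd160 and not for Itgae, but the unkept barcodes were chosen by 3 markers and the annotated IEL were not.

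Genes around these contacts were read from a list of 26 epithelial genes. Of these 16 passed the low-count filter. Against the mean of the other epithelial types 12 were higher in enterocytes, 3 were lower and 1 did not pass the test. Of all 11013 genes 31.3% were higher in enterocytes in that comparison. The median of the 16 was 0.848 on the log2 scale against 0.0347 for all genes. H2-T3 was higher by 3.48 (adjusted p = 2.41e-19), the chemokine gene Ccl25, whose product draws CCR9+ lymphocytes to the small intestine, by 3.45 (adjusted p = 3e-06), and Il15, which encodes a survival factor of IEL, by 2.76 (adjusted p = 5.17e-08). In enterocytes Ccl25 was at 1273 and 1127 CPM and Il15 at 11.5 and 9.35 CPM. In TA cells they were at 583 and 420 CPM and at 4.50 and 4.02 CPM. Against TA cells 10 of the 16 were higher in enterocytes, 1 (Cdx1) was lower and 5 did not pass, while 29.1% of all genes were higher. Btnl9 gave 2 UMIs in all kept cells and Btn1a1 and Btn2a2 gave 0.

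Among factors known to control enterocyte genes, Hnf4g was higher in enterocytes by 1.69 (adjusted p = 3.66e-10) and Hnf4a by 0.59 (adjusted p = 0.000102), while Cdx1 was lower: it fell by 0.62 (adjusted p = 6.91e-05). Without the mouse term the calls of Hnf4a and Cdx1 were lost (adjusted p = 0.105 and 0.473). Against TA cells Hnf4g was higher by 0.98 (adjusted p = 0.000306), Cdx1 fell by 0.47 (adjusted p = 0.0103), and Hnf4a stood at -0.17 (adjusted p = 0.378). On plain library totals Hnf4a was lower in enterocytes than in TA cells (-0.58, adjusted p = 0.00712), and the Cdx1 call was lost with the stricter cell filter (adjusted p = 0.114) and without the mouse term (adjusted p = 0.706). In CPM, Hnf4g was at 151 and 93.3 in enterocytes and 83.7 and 84.1 in TA cells, and Hnf4a at 143 and 210 in enterocytes and 219 and 306 in TA cells. All other epithelial cells pooled held Hnf4a at 151 and 182 CPM, so the direction for Hnf4a in mouse 1 differs between this pooled level and the fit, which weighs types equally. Over the clusters, Hnf4a was lowest in cluster 1, where Btnl2 was highest, and highest in cluster 2, where Btnl2 was lowest, in both mice.

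From a list of 40 lymphocyte genes, 30 were in the matrices. Of these 8 passed the low-count filter in the epithelial sums and 26 with IEL included, so most entered only through IEL, and several are among the markers that named the class. Their levels are therefore a description. Xcl1, a chemokine gene of cytotoxic lymphocytes, was at 1554 and 386 CPM in IEL and at 0.206 and 0 CPM in enterocytes. Klrd1 was at 507 and 93.2 CPM, Gzma at 5495 and 3775 CPM, Cd3e at 297 and 319 CPM and Cd8a at 815 and 253 CPM. The receptor side of the Tnfrsf14 contact other than Cd160 rested on few UMIs in the shallow IEL sums. Btla gave 6 and 3 UMIs (22.9 and 13.3 CPM), all of them in cluster 14, and Tnfsf14 gave 1 and 1 (3.81 and 4.44 CPM). None of the T cell receptor genes on the list was in the matrices under the names searched, so γδ and αβ cells were not told apart.

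Most Itgae and Cd160 UMIs of mouse 1 lay in barcodes that the authors did not keep. Of its Itgae UMIs 6.56% and of its Cd160 UMIs 12.2% were in annotated IEL, whereas 89.0% and 85.3% were in the 5583 barcodes not kept. In mouse 2, with 58 barcodes not kept, 7.02% and 4.76% were. Among barcodes that were not kept and were called singlets, 776 of mouse 1 and 0 of mouse 2 held at least 3 of the 6 IEL markers, and 397 held all 6. They held 1046 Itgae UMIs (636 CPM), 992 Cd160 UMIs (603 CPM), 1272 Cd3e UMIs (773 CPM) and 1419 Ptprc UMIs (863 CPM). Their Btnl1 and Btnl2 UMIs were 5 and 1, and Epcam and 3 other epithelial genes summed to 572 CPM in them against 735 CPM in the annotated IEL of the same mouse. Cdh1 went the other way, at 75.4 CPM (124 UMIs) in these barcodes against 45.7 CPM in those IEL.

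These barcodes were shallow, with a median of 2036.5 UMIs and 1042 genes, and 767 of the 776 lay under the 1500 genes that the authors required. The median mitochondrial share was 5.36%, and 31 were over the authors' limit of 25%. Itgae was seen in 70.1% of them (interval 66.7 to 73.3%) and Cd160 in 56.6% (53.0 to 60.1%). With every barcode thinned to 1500 UMIs, which leaves 692 of them, the shares were 60.3% and 51.3%, against 38.0% for each gene in the annotated IEL of mouse 1 (24.7 to 52.8%) and 0.215% and 0.107% in its enterocytes. The annotated IEL include cluster 14, whereas the unkept barcodes were chosen by their markers. The 27 kept IEL of mouse 1 that also held at least 3 of the 6 markers had thinned shares of 51.9% for Itgae (31.9 to 71.3%) and 70.4% for Cd160 (49.8 to 86.2%). At full depth these 27 cells held Itgae at 429 CPM and Cd160 at 990 CPM, so against this like choice of cells Itgae was higher and Cd160 lower in the unkept barcodes, with thinned intervals that overlap for both. Both genes were seen in 312 barcodes, and Itgae was seen in 71.1% of the barcodes with Cd160 and 68.8% of those without.

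Cd8a, the chain that CD8αα and CD8αβ cells share, was seen in 693 of the 776 barcodes. Cd8b1, the β chain of CD8αβ, was seen in 50 and Cd4 in 11. Itgae was seen in 60.0% and Cd160 in 72.0% of the barcodes with Cd8b1, and in 70.8% and 55.5% of those without, at median depths of 2197 and 2025.5 UMIs. When the 776 barcodes were added to the IEL sums, Cdh1 fell by 1.61 (adjusted p = 0.000128).

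**Figure D4:**
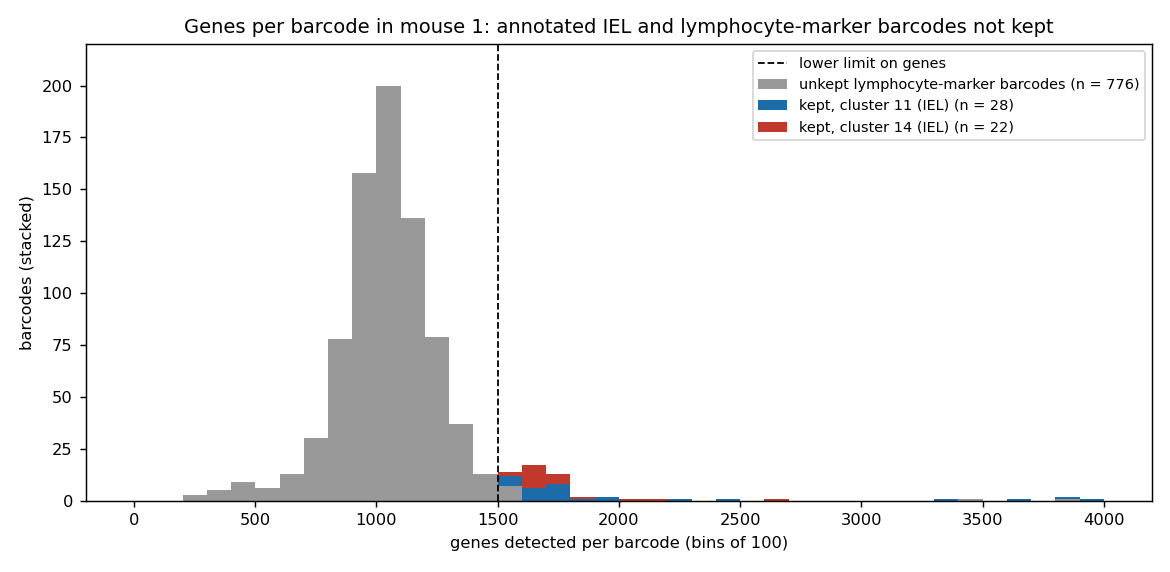
Genes detected per barcode (x axis, bins of 100) in mouse 1 for annotated IEL of clusters 11 and 14 and for the 776 lymphocyte-marker barcodes that were not kept (y axis, stacked number of barcodes). The dashed line marks the authors' lower limit of 1500 genes, and 767 of the 776 barcodes lie below it.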

How the data were processed

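Jejunal crypt cells of 2 375KO mice were read as 1 droplet library each. The authors aligned reads to mm10 with Cell Ranger 3.0.1, and the deposited matrices hold UMI counts per gene and barcode as whole numbers. The authors discarded barcodes under 1500 genes or over 25% mitochondrial UMIs, removed doublets called by scDblFinder, corrected for free RNA with SoupX (in which matrices is not given in the sources used here), and clustered with Seurat (3.2.1 in the submitters' processing notes, a later version in the study's methods). Their deposited annotation gives cluster names and the mitochondrial percent of each cell, and 3275 of 3275 cells were joined to it with the same UMIs, genes and mouse. Columns of 2937 cells and 6059 doublet-table barcodes of another series were not used.

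For each mouse, the UMIs of all cells with 1 annotated name were added up (18 epithelial sums, 20 with IEL). edgeR 4.0.16 (quasi-likelihood test, robust, TMM, filterByExpr, terms for type and mouse, R 4.3.3) was run over all genes with Benjamini-Hochberg adjustment and a threshold of 0.05, and DESeq2 1.42.0 was an alternative. Residual degrees of freedom were 8 and 9. Sums of types within a mouse share that mouse. The p-values rest on how far type differences varied between the 2 mice, with this spread pooled over the types. edgeR also draws the spread of each gene toward that of the other genes. Very small p-values therefore rest on this borrowing as well as on the 2 mice. The overall difference between the mice is taken out by the mouse term and is not part of that spread. Levels are CPM with exact Poisson intervals, shares have Clopper-Pearson intervals, both at 95% and for counting error only, and a count of 0 allows up to 3 counts. Single-mouse log2 values carry no test and had 2 counts added as a prior. Likeness used a pseudocount of 1. The code was tested on simulated data. The 8 genes, the other lists and the rules for named genes (a fixed set of list genes, the 3 largest passing changes of each list with 1 sign in both mice, and the 3 most alike genes of each member tested) were chosen with earlier results of these data known. Alternatives were DESeq2, no low-count filter, no mouse term, cells thinned to 5000 UMIs, a stricter cell filter (at least 2000 genes, at most 10% mitochondrial), IEL sums included, TMM-scaled levels, and each mouse left out. Further ones were chosen after seeing the data: no TMM scaling, Paneth sums left out, IEL cluster 11 alone, lymphocyte-marker barcodes added, thinning to 1500 UMIs, and kept IEL with at least 3 markers. Python 3.11.15, numpy 2.4.6, scipy 1.17.1, pandas 2.3.3 and matplotlib 3.10.9 were used.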

Additional observations from a re-analysis of the deposited data

Results flagged for a closer look

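Lymphocyte signal was seen in barcodes that lie outside the comparisons of the report. In mouse 1, 776 singlet barcodes that the authors did not keep held at least 3 of the 6 IEL markers, while 0 such barcodes were seen in mouse 2, where 58 barcodes in all were not kept. These 776 held 1046 Itgae UMIs, 80.7% of the Itgae of that library, and 992 Cd160 UMIs, 75.9% of its Cd160. Just outside the marker rule, 46 barcodes with 2 of the 6 markers held 30 Itgae and 69 Cd160 UMIs. Of the 776, 5 lay within both of the authors' limits on genes and mitochondrial share.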

How the results depend on the processing

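For the 8 genes and for H2-T3, Ccl25, Il15, Hnf4g, Hnf4a and Cdx1, no called fold change was reversed under the alternatives run. Other list genes were not recomputed one by one. Against TA cells the H2-T3 call was lost without the mouse term (adjusted p = 0.198). Thinning to 5000 UMIs gave 3613 called genes of 8273 tested for enterocytes against the other types and 1359 of 7828 for IEL. After thinning 3 of the 8 genes passed the low-count filter in each enterocyte comparison, and 2 of these were called. Without the mouse term 3946 of 11013 genes were called for enterocytes against the other types, 2843 against TA cells and 5693 over all types. Of the 8 genes 5 were tested there, and 2 were called against TA cells and 2 over all types. On plain totals 2 of the 5 tested were called against TA cells, among 5931 of 11013 genes. IEL calls numbered 2228 of 11302 genes with cluster 11 alone and 5246 of 11492 with the unkept barcodes added, and the cause was not tested. The cluster 11 sum of mouse 2 held only 5 cells. Mean shares after thinning were 13.4% for Btnl1, 16.5% for Btnl2, 4.21% for Btnl4, 2.63% for Btnl6, 58.8% for Cdh1 and 0.5% for Tnfrsf14 in enterocytes. In IEL they were 62.1% for Itgae and 42.9% for Cd160, with 11 of 50 cells of mouse 1 deep enough. The single mice were far apart, at 90.9% and 33.3% for Itgae and 63.6% and 22.2% for Cd160. Btnl6 in enterocytes was 5.63 CPM after thinning and 4.01 CPM with the stricter filter.

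With 1 mouse left out, values with no test ranged over the mice: in enterocytes 21.9 to 38.5 CPM for Btnl1, 21.7 to 50.9 for Btnl2, 5.42 to 12.2 for Btnl4, 4.49 to 5.21 for Btnl6, 158 to 241 for Cdh1 and 0.878 to 2.81 for Tnfrsf14, and in IEL 138 to 324 for Itgae and 217 to 609 for Cd160. The stricter filter leaves out the IEL sum of mouse 1 (6 cells). No paired analysis between groups was possible because the samples form 1 group, and the mouse term is part of every main test. With 2 mice and sparse counts, Btnl6 and Tnfrsf14 were below the filter on low counts in every test reported with it.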
